A study of Mus musculus with 12 samples.

Results

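The TNF ligand and receptor superfamily was followed in primary mouse oligodendrocyte precursor cells (OPCs), the proliferating PDGFRα-positive glia that give rise to myelinating oligodendrocytes. Members were the genes whose symbol is Tnfrsf or Tnfsf followed by a number, together with *Tnf*, *Lta*, *Ltb*, *Fas*, *Fasl*, *Cd40*, *Cd40lg*, *Ltbr*, *Ngfr*, *Cd27*, *Cd70*, *Edar* and *Eda2r*. They were 45 of the 45563 genes used, namely 27 receptors, 17 ligands and 1 antisense RNA, *Tnfsf13os*. RNA was sequenced from 12 libraries in 4 groups of 3. WT (C57BL/6J) and TNFR2-/- OPCs, the latter from mice that carry the altered *Tnfrsf1b* gene in all their cells, were isolated with anti-PDGFRα beads from the cortices of pups and kept in growth medium with PDGF-AA and FGF2 for 3 days in vitro. Each genotype was non-stimulated (NS), with vehicle, or stimulated (St) for 3 h with TNF, IFNγ and IL1β at 25 ng/mL each. The pup age is days 2 to 5 in the labels but starts 1 day later in the study's methods.

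TNF superfamily ligands are mostly trimeric membrane proteins that act on neighboring cells or, after shedding, at a distance. Their receptors carry cysteine-rich domains outside the cell and recruit TRAF adaptors or, in the death receptors, FADD or TRADD, which leads to NF-κB activation or to caspase activation. In the CNS the family is best known through TNF and its receptors TNFR1 (*Tnfrsf1a*) and TNFR2 (*Tnfrsf1b*), and OPCs are cells in which both have been studied.

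Reads recovered on genes ranged from 26870452 to 30316731 per library. The summed level of 7 OPC markers ranged from 3120 to 5370 CPM (recovered reads scaled to the library total) over the 12 libraries, and was lower in each St group (3390 to 3900 in WT, 3120 to 3650 in TNFR2-/-) than in its NS group (4640 to 5110 and 4300 to 5370). In bulk RNA, fewer cells of a type and less RNA per cell cannot be told apart. The 12 microglia and macrophage markers summed to 1.04 to 2.3 CPM, and the 7 lymphocyte markers to 0.198 to 2.94, with *Cd3d* and *Ms4a1* at 0 in all libraries. The 6 astrocyte markers summed to 790 to 944 CPM in WT, to 1220 to 1350 in TNFR2-/- libraries numbered 2 and 4 and to 2510 to 2520 in both TNFR2-/- libraries numbered 5, which stood apart. The 7 mural and fibroblast markers were lowest in the same libraries, at 75.6 to 107 CPM against 213 to 872 elsewhere, mostly through *Acta2* (70 to 100 CPM in those libraries). *Col1a1* was lowest there too. On at most 37 reads, *Rgs5* was highest in TNFR2-/- NS replicate 5 and *Lum* in TNFR2-/- St replicate 5. The 6 neuron markers summed to 108 to 149 CPM in NS and to 465 to 554 in St, mostly through *Tubb3*. *Snap25* among them went the other way, at 29.2 to 57.9 CPM in NS and 16.6 to 23.9 in St libraries. Endothelial markers ranged from 21.3 to 61.1, mostly through *Flt1*, and mature oligodendrocyte markers from 275 to 817, with the groups overlapping. The part of these differences in the results below was not tested, except where values without the libraries numbered 5 are given.

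Promoters are shown for 2 of the receptor genes whose mRNA rose with stimulation in WT. They are given as 250 bases that end at the base before the RefSeq start site (build GRCm38.p6, 5′ to 3′ on the strand of the gene). Capitals mark matches, on either strand, to a GAS element (TTCNNNGAA, a motif found near IFNγ-responsive genes), an ISRE (the motif of interferon-stimulated genes) or an AP-1 site (TGANTCA). The κB motif was searched as well. *Fas* is at chr19:34290409-34290658 on the plus strand and *Tnfrsf1b* at chr4:145246871-145247120 on the minus strand.
Fas: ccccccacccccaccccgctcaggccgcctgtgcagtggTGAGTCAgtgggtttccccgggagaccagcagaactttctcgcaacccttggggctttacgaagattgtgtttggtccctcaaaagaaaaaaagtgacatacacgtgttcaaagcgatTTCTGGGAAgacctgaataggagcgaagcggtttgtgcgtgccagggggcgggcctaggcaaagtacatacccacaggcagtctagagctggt
Tnfrsf1b: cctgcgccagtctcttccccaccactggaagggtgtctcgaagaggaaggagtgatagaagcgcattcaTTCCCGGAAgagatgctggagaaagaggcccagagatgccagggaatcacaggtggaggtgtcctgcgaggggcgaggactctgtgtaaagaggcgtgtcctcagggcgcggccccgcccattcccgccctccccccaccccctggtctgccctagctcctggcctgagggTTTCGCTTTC
The *Fas* promoter held 1 AP-1 match and 1 GAS match, which began 211 and 93 bases before the start site. The *Tnfrsf1b* promoter held 1 GAS match and 1 ISRE match, which began 181 and 10 bases before it. Neither held a κB match in this window. Among all 32851 promoters of this length, 7.02% held a GAS match, 2.98% an ISRE match, 6.75% an AP-1 match and 7.25% a κB match. RefSeq gave a promoter for 34 members, 38 windows in all, of which 8 held a GAS match, 4 an ISRE match, 6 an AP-1 match and 4 a κB match. Among the other receptors that rose in WT, *Tnfrsf1a* held 1 GAS match and *Eda2r* no match. *Cd40*, *Tnfrsf10b* and *Tnfrsf11b* had no promoter entry. The 2 promoters shown thus held the most matches among these receptors. *Tnf* held no match, while *Tnfrsf17*, with at most 2 reads in a library, held 1 ISRE match. A match is a description of these letters and not a measured site.

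The 8 members with the highest level in WT NS were receptors. Because the divisor behind the FPKM of each gene did not follow its exon length, levels of different genes are compared only as RPKM, the recovered reads per kb of annotated exon scaled to the library total. On that scale, the first were *Tnfrsf12a* (Fn14, the receptor of TWEAK) at 122 ± 10.2 (SD, n = 3), *Tnfrsf21* (death receptor 6) at 48.5 ± 3.97 and *Tnfrsf1a* at 45.0 ± 0.807. *Tnfrsf21* and *Tnfrsf1a* did not differ beyond their spread. *Eda2r* followed at 24.2 ± 1.21, then *Ltbr* at 14.0 ± 3.17, *Tnfrsf19* at 13.7 ± 1.13 and *Fas* at 10.1 ± 3.0, whose ranges of 1 SD overlapped. The highest ligand was *Tnfsf9* (4-1BB ligand) at 3.27 ± 0.455, and *Tnfrsf1b* stood at 0.153 ± 0.0501. In WT St, *Tnfrsf12a* (121 ± 8.81), *Tnfrsf1a* (118 ± 5.9) and *Fas* (65.2 ± 9.29) were the highest. At the other end of the scale, *Cd40lg* had 0 reads in all 12 libraries.

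**Figure D1:**
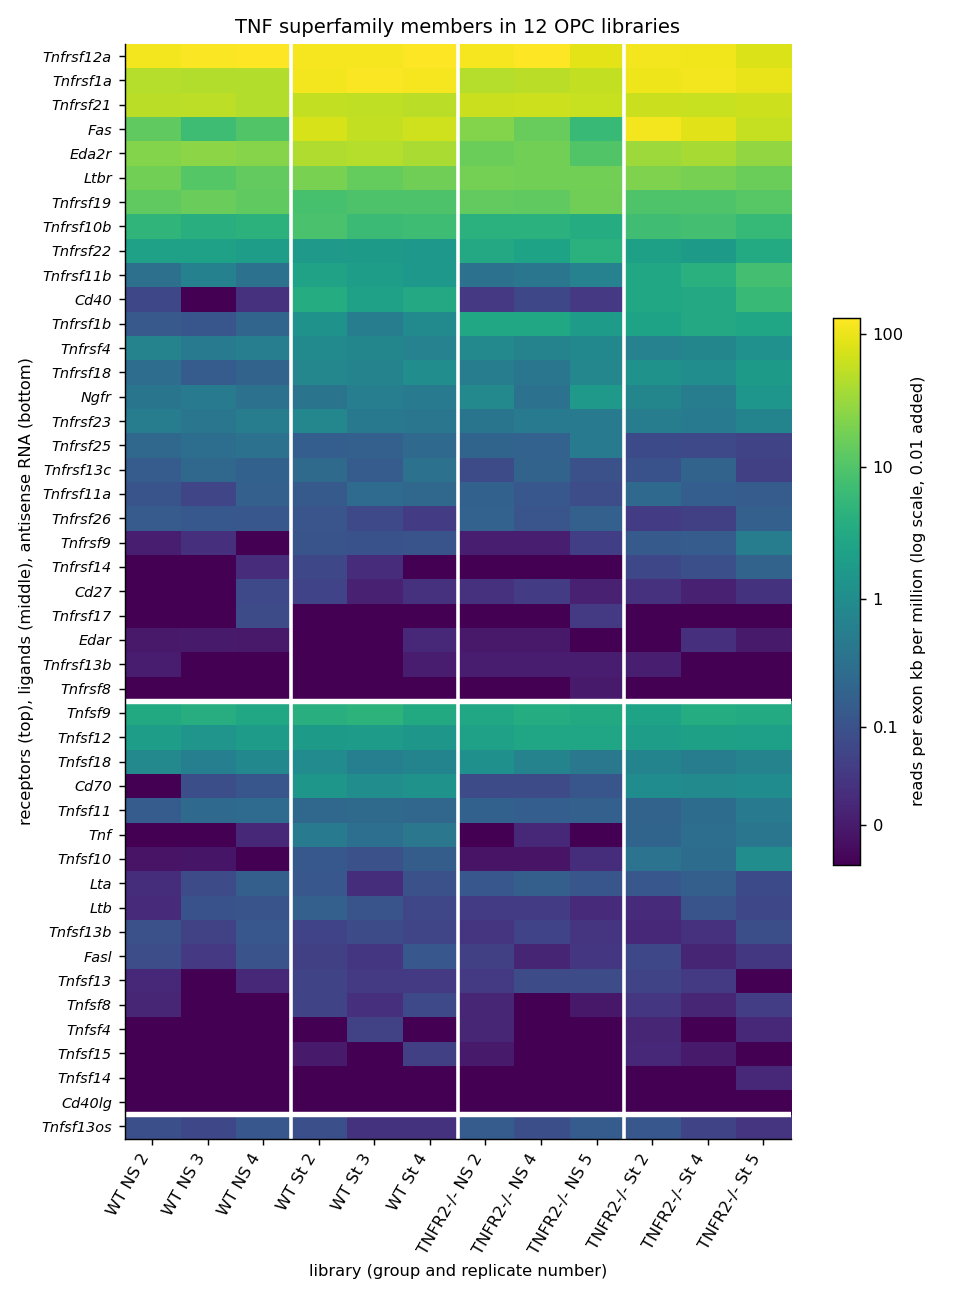
Level of the 45 members in the 12 libraries, in RPKM (recovered reads per kb of annotated exon, scaled to the library total) on a log color scale (0.01 added), with receptors above, ligands below them and the antisense RNA at the bottom, each ordered by mean level. *Tnfrsf12a*, *Tnfrsf1a* and *Tnfrsf21* are the brightest rows, *Cd40* and *Tnf* are near 0 in NS and detected in St, and *Tnfrsf1b* is dimmest in WT NS.

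Of the 45 members, 34 had a mean of at least 0.1 FPKM over the libraries and were tested, namely 22 receptors and 12 ligands. The other 11 had at most 8 reads in any library. They were the receptors *Cd27*, *Edar*, *Tnfrsf13b*, *Tnfrsf17* and *Tnfrsf8*, the ligands *Cd40lg*, *Fasl*, *Tnfsf14*, *Tnfsf4* and *Tnfsf8*, and *Tnfsf13os*. Fold changes are limma estimates on log2(FPKM + 0.5) with their SE. Adjustment of the p-values (Benjamini-Hochberg) was over all 18081 genes tested. Calls required an adjusted p up to 0.05, a change of 1.5-fold or more in either direction and a mean level of 1 FPKM or more, which 19 of the tested members reached. Since the divisor of the FPKM did not follow exon length, this floor and the pseudocount fall at different read levels in different genes. *Tnfrsf26* passed the floor with 4 to 18 reads per library, whereas *Cd70*, with up to 38 reads, did not.

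In WT OPCs 7 members, all of them receptors, were called higher with stimulation and 1 lower. Of the ligands, only *Tnfsf9*, *Tnfsf11* and *Tnfsf12* reached the floor of 1 FPKM and could be called. Over all genes tested, 4.58% were called higher and 2.95% lower. In TNFR2-/- OPCs 6 members were called higher, again all receptors, and 0 lower, against 5.41% and 4.68% of all genes. The 6 were among the 7 of WT, and the other one was *Tnfrsf1b* itself. The median log2 fold change of the 34 tested members was 0.25 in WT and 0.15 in TNFR2-/-, and that of all genes tested was -0.05 and -0.11. With no floor of 1 FPKM, an alternative chosen after seeing the data, 9 and 10 members were higher, against 5.38% and 6.59% of all genes.

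*Tnfrsf1b* (chr4:145213463-145246870, minus strand) is the gene altered in TNFR2-/- mice, and its mRNA was higher, not lower, in the libraries with that label. WT NS libraries held 0.155, 0.138 and 0.248 FPKM (15, 12 and 24 reads), and TNFR2-/- NS libraries 3.31, 3.54 and 2.17 FPKM (322, 346 and 213 reads). WT St libraries held 1.49, 0.629 and 1.08 FPKM (145, 61 and 105 reads), and TNFR2-/- St libraries 2.91, 3.64 and 3.13 FPKM (282, 356 and 290 reads). Every library labelled TNFR2-/- was above every WT library of either condition. The difference was 2.35 ± 0.21 on the log2 scale in NS (adjusted p = 0.00134, limma) and 1.28 ± 0.21 in St (adjusted p = 0.016). Summed reads were 16.5 times higher in NS (95% counting interval 12.5 to 22.4, which covers counting error only) and 3.03 times higher in St (2.66 to 3.45). These values are for the whole gene and do not show which exons the reads came from. They therefore do not tell whether an intact transcript or protein was made, and TNFR2-/- is used here as the label of those libraries. The study checked the loss of TNFR2 signaling by AKT phosphorylation, which rose with the cytokines in WT but not in TNFR2-/- OPCs. It also quantified *Tnfrsf1b* mRNA in both genotypes, but its text gives no value for TNFR2-/- OPCs. Microglia and macrophage markers overlapped between the genotypes (1.26 to 2.3 CPM in TNFR2-/- and 1.04 to 1.96 in WT), and their part in the *Tnfrsf1b* values was not tested.

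In WT, *Tnfrsf1b* mRNA rose with stimulation by 1.17 ± 0.21 on the log2 scale (adjusted p = 0.00351), and in cultures numbered 2, 3 and 4 the St library had 9.65, 4.55 and 4.36 times the FPKM of its NS library. Because WT NS lay under the pseudocount, the log2 estimate is shrunk, and voom on the recovered reads gave 2.48 ± 0.47 (adjusted p = 0.00276). In TNFR2-/- the NS and St libraries overlapped, and the difference was 0.11 ± 0.21 (adjusted p = 0.761). The difference between these responses was -1.06 ± 0.30 (unadjusted p = 0.00504, adjusted p = 0.496, limma), so it did not pass the test over all genes. With NS and St libraries of the same number taken as 1 culture, it was -1.06 ± 0.25 (adjusted p = 0.11, limma), which did not pass either. The pseudocount shrinks this difference too, and voom gave -2.35 ± 0.52 (adjusted p = 0.669). The St difference between genotypes lost its call when 1 of 3 libraries was left out, namely replicate 3 of WT St (1.07 ± 0.19, adjusted p = 0.0548), replicate 4 of WT St (1.31 ± 0.25, adjusted p = 0.0656) or replicate 5 of TNFR2-/- St (1.30 ± 0.25, adjusted p = 0.0538), while without both TNFR2-/- libraries numbered 5 it was 1.30 ± 0.22 (adjusted p = 0.0369). The NS difference was 2.53 ± 0.22 without those libraries (adjusted p = 0.00491).

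*Tnfrsf1a* (chr6:125349362-125362484), which encodes the ubiquitous death-domain receptor TNFR1, rose in both genotypes. WT NS libraries held 62.8, 61.3 and 60.7 FPKM and WT St libraries 157, 171 and 157 FPKM. TNFR2-/- NS libraries held 62.3, 68.99 and 75.4 FPKM and TNFR2-/- St libraries 143, 155 and 135 FPKM. St and NS libraries did not overlap in either genotype. The rise was 1.38 ± 0.08 in WT (adjusted p = 5.01e-07) and 1.06 ± 0.08 in TNFR2-/- (adjusted p = 3.41e-06) on the log2 scale. The genotypes differed by 0.16 ± 0.08 in NS (adjusted p = 0.201) and by -0.16 ± 0.08 in St (adjusted p = 0.199). The responses differed by -0.32 ± 0.11 (unadjusted p = 0.0136, adjusted p = 0.543), and by -0.32 ± 0.10 with same-numbered libraries taken as 1 culture (adjusted p = 0.164, limma). Thus no difference between genotypes passed the test for *Tnfrsf1a*. Each library held at least 3116 reads of this gene.

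The death receptors *Fas* and *Tnfrsf10b* (the TRAIL receptor of mice) rose in both genotypes. For *Fas* (chr19:34290666-34327772), whose promoter is shown above, WT NS libraries held 29.9, 16.2 and 22.9 FPKM and WT St libraries 169, 127 and 151 FPKM. TNFR2-/- NS libraries held 53.0, 33.9 and 14.0 FPKM and TNFR2-/- St libraries 261, 197 and 133 FPKM. The level differed among TNFR2-/- cultures more than among WT cultures, with replicate 5 lowest in both conditions, but the rise was present in each culture, by 5.67 to 7.85 times in WT and 4.93 to 9.49 times in TNFR2-/-. The log2 fold changes were 2.70 ± 0.42 (adjusted p = 0.00132) and 2.67 ± 0.42 (adjusted p = 0.00107), with a difference of -0.03 ± 0.60 between them (adjusted p = 0.998). *Tnfrsf10b* (chr14:69767472-69784411) went from 427, 345 and 374 FPKM to 741, 547 and 602 FPKM in WT, a rise of 0.71 ± 0.14 (adjusted p = 0.00568). In TNFR2-/- it went from 359, 366 and 298 FPKM to 614, 654 and 495 FPKM, a rise of 0.78 ± 0.14 (adjusted p = 0.00241).

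*Cd40* (chr2:165055627-165072948), a costimulatory receptor of antigen-presenting cells, had the largest rise on this scale in both genotypes. Its reads were 7, 0 and 3 in WT NS, 4, 7 and 4 in TNFR2-/- NS, 371, 229 and 313 in WT St and 294, 321 and 577 in TNFR2-/- St libraries. In FPKM, the NS libraries did not exceed 0.102, and the St libraries held 5.39, 3.34 and 4.55 in WT and 4.28, 4.64 and 8.79 in TNFR2-/-. The log2 fold changes were 3.15 ± 0.24 (adjusted p = 5.98e-06) and 3.42 ± 0.24 (adjusted p = 2.57e-06). With a group so near 0, the pseudocount shrinks the fold. Summed reads rose 88 times in WT (95% counting interval 47.6 to 184) and 81 times in TNFR2-/- (48.9 to 145), or 56 times without both libraries numbered 5 (31.1 to 113). The St libraries of the genotypes overlapped, and the difference of 0.33 ± 0.24 did not pass the test (adjusted p = 0.399). *Cd40lg*, its ligand, had 0 reads throughout, which allows up to 3 reads per library.

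*Tnfrsf11b* (chr15:54250619-54278484) encodes osteoprotegerin, a secreted decoy receptor for RANKL and TRAIL. WT NS libraries held 1.73, 3.50 and 1.92 FPKM and WT St libraries 12.8, 10.4 and 8.37 FPKM, a rise of 1.97 ± 0.35 (adjusted p = 0.00308). TNFR2-/- NS libraries held 1.85, 2.22 and 3.55 FPKM and TNFR2-/- St libraries 15.9, 22.4 and 41.4 FPKM, a rise of 3.08 ± 0.35 (adjusted p = 0.000106). Each TNFR2-/- St library was above each WT St library. That difference was 1.21 ± 0.35 and missed the threshold (adjusted p = 0.0676), while voom on the recovered reads gave 1.23 ± 0.33 (adjusted p = 0.0436). Without the TNFR2-/- libraries numbered 5, in which astrocyte markers were highest, it was 0.84 ± 0.28 (adjusted p = 0.124). The difference between responses was 1.12 ± 0.50 (unadjusted p = 0.0464, adjusted p = 0.62).

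**Figure D2:**
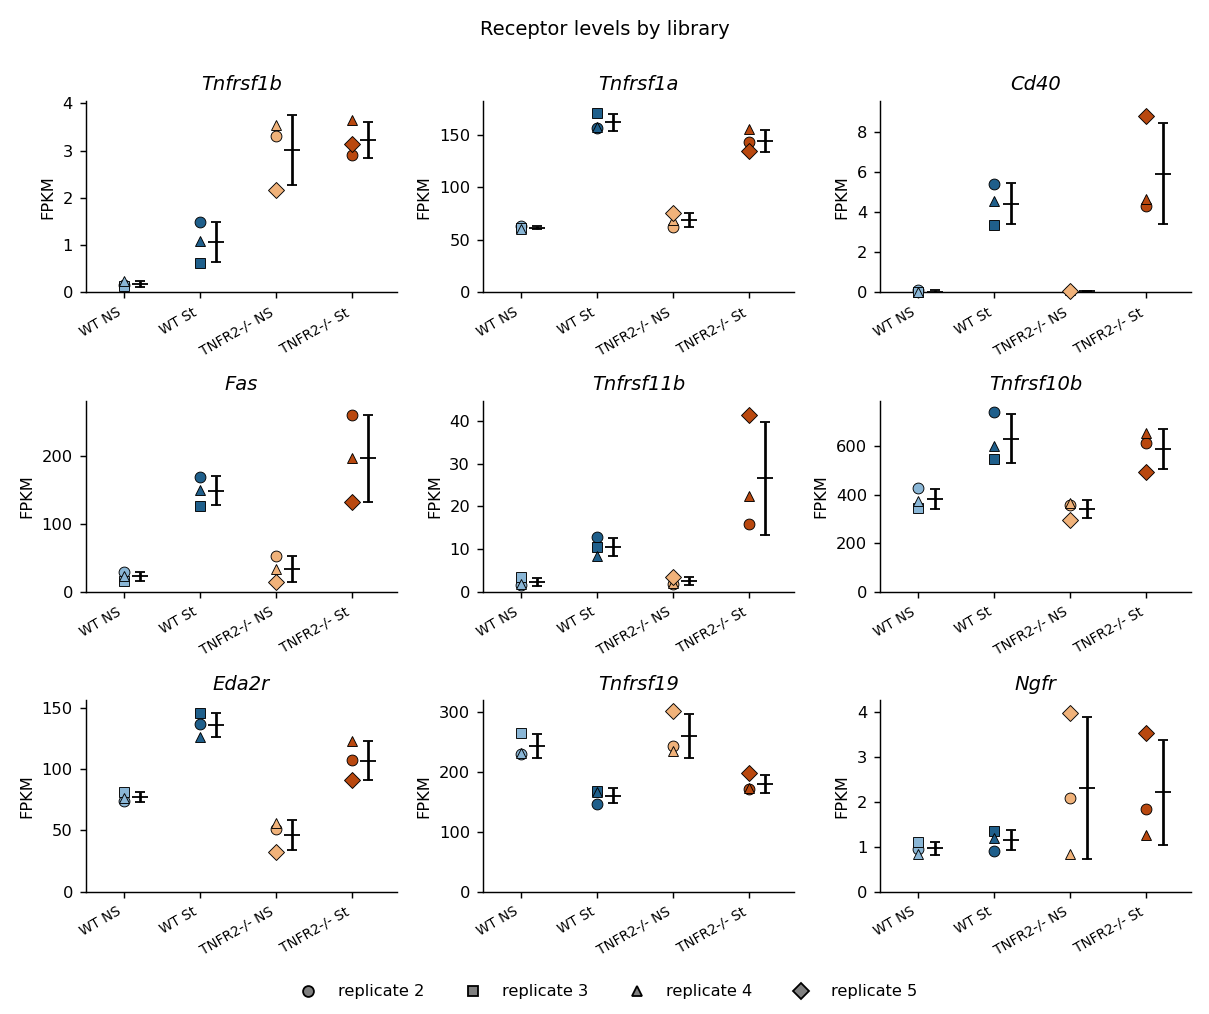
FPKM of the 8 receptors called in at least 1 comparison and of *Ngfr*, on linear axes from 0. Each symbol is 1 library, its shape gives the replicate number, and bars are the mean ± SD of 3 libraries. *Tnfrsf1a*, *Cd40*, *Fas* and *Tnfrsf10b* separate NS from St in both genotypes, *Tnfrsf1b* is higher in all libraries labelled TNFR2-/-, and replicate 5 is an extreme of its group for *Tnfrsf11b*, *Eda2r* and *Ngfr*.

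*Eda2r* (chrX:97333840-97377216), the receptor of ectodysplasin A2, rose with stimulation and was lower in TNFR2-/- NS. WT libraries held 73.6, 81.3 and 76.5 FPKM in NS and 137, 146 and 126 FPKM in St. TNFR2-/- libraries held 50.7, 56.0 and 32.6 FPKM in NS and 107, 123 and 90.8 FPKM in St. The rise was 0.82 ± 0.18 in WT (adjusted p = 0.00945) and 1.22 ± 0.18 in TNFR2-/- (adjusted p = 0.000575). In NS, where the genotypes did not overlap, the difference was -0.76 ± 0.18 (adjusted p = 0.0282). It was -0.53 ± 0.09 without both TNFR2-/- libraries numbered 5 (adjusted p = 0.0306), which is below the fold change threshold. It missed the adjusted p without TNFR2-/- NS replicate 2 (-0.84, adjusted p = 0.052) or 5 (-0.53, 0.0585) and without WT NS replicate 3 (-0.72, 0.108) or 4 (-0.77, 0.0863). In St the difference was -0.36 ± 0.18 (adjusted p = 0.225).

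*Tnfrsf19* (TROY, chr14:60963875-61046490), an orphan receptor of the nervous system, was the only member called lower with stimulation, and this in WT only. WT libraries went from 230, 265 and 231 FPKM in NS to 146, 168 and 167 FPKM in St, and TNFR2-/- libraries from 243, 234 and 302 FPKM to 171, 172 and 197 FPKM. Every St library was below every NS library. The log2 fold change was -0.60 ± 0.11 in WT (adjusted p = 0.00329), at the edge of the fold change threshold, and -0.52 ± 0.11 in TNFR2-/- (adjusted p = 0.00506), inside it. The difference between these responses was 0.07 ± 0.15 (adjusted p = 0.956). The WT call was lost without WT NS replicate 3 or WT St replicate 2 (-0.53 in both, adjusted p = 0.0167 and 0.0165) and with median-of-ratios scaling of the libraries (-0.54 ± 0.10). The summed OPC markers were lower in the same St libraries, as given above, although *Sox10* among them was higher in each St library than in the NS library of its culture. Their part was not tested.

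Of the members above 1 FPKM that were called in no comparison, *Tnfrsf12a*, *Tnfrsf22*, *Tnfrsf21*, *Tnfsf12* and *Ltbr* were taken by their mean FPKM, which is not an order of abundance. *Tnfrsf12a*, which binds TWEAK (*Tnfsf12*), differed by -0.01 ± 0.15 with stimulation in WT (adjusted p = 0.974) and by -0.17 ± 0.15 in TNFR2-/- (adjusted p = 0.458). *Ltbr*, the lymphotoxin β receptor, differed by 0.27 ± 0.16 and 0.05 ± 0.16 (adjusted p = 0.345 and 0.857). *Tnfrsf21* differed by 0.12 ± 0.07 and 0.01 ± 0.07 with stimulation (adjusted p = 0.279 and 0.935). It was higher in TNFR2-/- NS, at 66.1, 69.1 and 65.1 FPKM against 53.9, 55.6 and 47.5 FPKM in WT NS, by 0.35 ± 0.07 (adjusted p = 0.0188), below the fold change threshold. *Tnfsf12*, of which 48.3% of exon bases are shared with the read-through gene *Tnfsfm13*, was 0.52 ± 0.14 higher in TNFR2-/- NS (adjusted p = 0.0374), also below the threshold. Its adjusted p was 0.0697 with culture as a replicate block and 0.115 without both libraries numbered 5. Over all members above 1 FPKM that were not called, log2 fold changes ran from -0.63 to 0.27 in WT St vs WT NS (11 members) and from -0.75 to 0.74 in TNFR2-/- St vs TNFR2-/- NS (13 members).

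*Tnfrsf22*, a decoy TRAIL receptor of mice, and *Tnfrsf26* had negative fold changes with stimulation. *Tnfrsf22* was called only without TNFR2-/- St replicate 5, and *Tnfrsf26* only without that library or without both libraries numbered 5. *Tnfrsf22* differed by -0.46 ± 0.23 in TNFR2-/- (adjusted p = 0.173) and by -0.46 ± 0.04 with culture as a replicate block (adjusted p = 0.000187), below the fold change threshold. It differed by -0.72 ± 0.20 without TNFR2-/- St replicate 5 (adjusted p = 0.028), a fit that kept the NS library of that culture. Within cultures, the log2 differences were -0.5 to -0.39 in TNFR2-/- and -0.49 to -0.38 in WT. Of its 100-base sequences, 15.8% also occur in other genes, *Tnfrsf23* among them, so its reads are uncertain. *Tnfsf11* (RANKL), named after its values were seen, had 12, 11 and 12 reads in TNFR2-/- NS and 13, 19 and 33 in TNFR2-/- St, a difference of 0.74 ± 0.29 (adjusted p = 0.0857) that was called without TNFR2-/- St replicate 2 (adjusted p = 0.02) and was 0.40 ± 0.25 without both libraries numbered 5 (adjusted p = 0.3). *Tnfrsf26* differed by -0.75 ± 0.35 (adjusted p = 0.146) and by -1.19 ± 0.26 without TNFR2-/- St replicate 5 (adjusted p = 0.00902), on 4 to 18 reads per library. *Ngfr* (p75, the neurotrophin receptor), named after its values were seen, had 91, 37 and 174 reads in TNFR2-/- NS against 41, 43 and 36 in WT NS. The value of 174 was in replicate 5. The difference was 0.78 ± 0.40 (adjusted p = 0.216), 1.22 ± 0.33 without TNFR2-/- NS replicate 4 (adjusted p = 0.0405) and 0.36 ± 0.27 without both libraries numbered 5 (adjusted p = 0.437).

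**Figure D3:**
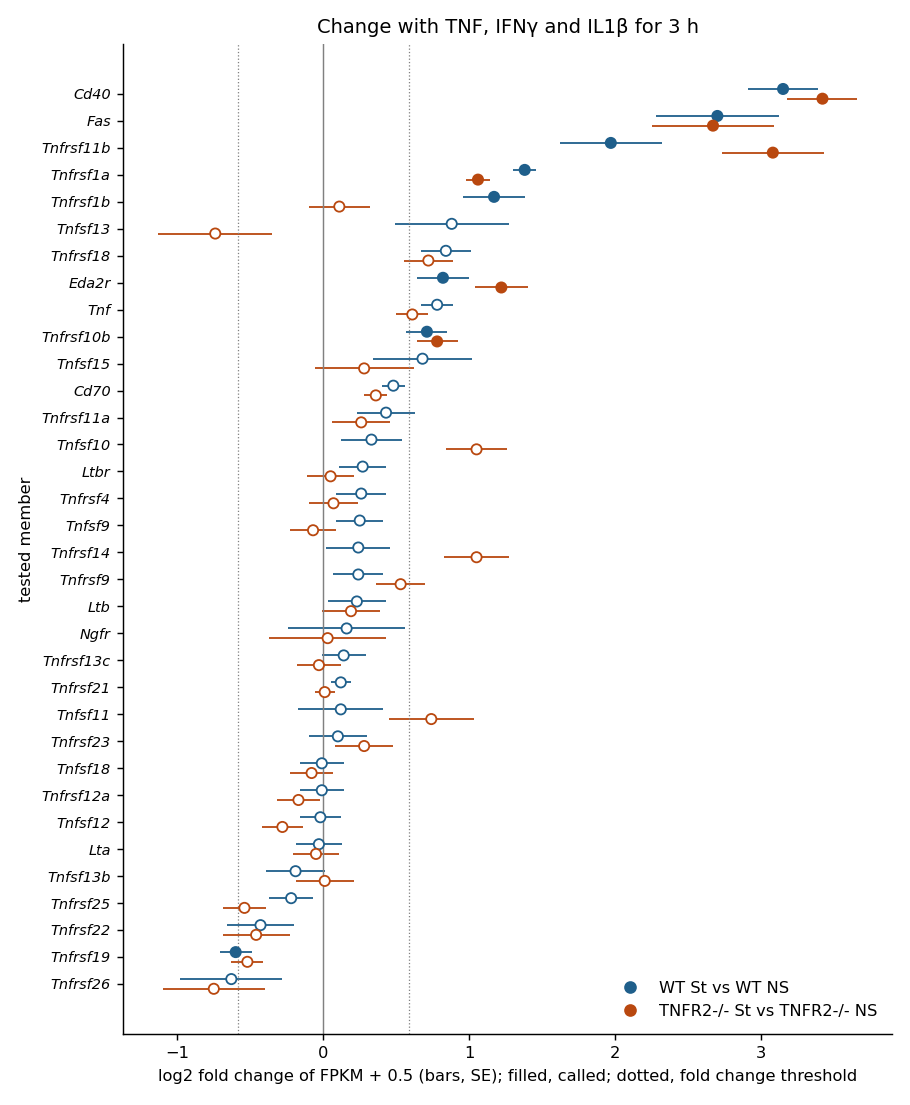
Log2 fold change of FPKM + 0.5 with stimulation for the 34 tested members, with SE bars, in WT (blue) and TNFR2-/- (orange), ordered by the WT value. Filled points are called, and dotted lines mark the fold change threshold of 1.5-fold. *Cd40*, *Fas* and *Tnfrsf11b* lie farthest to the right in both genotypes, *Tnfrsf1b* is filled in WT only (difference between responses not called), and the ligands are open points.

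The ligands were called in none of the comparisons. Most were under the floor of 1 FPKM, and several of these were detected mainly after stimulation. *Tnf* (chr17:35199381-35202007), itself 1 of the 3 cytokines added, had 0, 0 and 1 reads in WT NS and 0, 1 and 0 in TNFR2-/- NS libraries. It had 25, 15 and 21 reads in WT St and 10, 15 and 19 in TNFR2-/- St libraries. All St libraries were above all NS libraries. Its mean was 0.374 ± 0.0922 FPKM in WT St and 0.275 ± 0.0909 FPKM in TNFR2-/- St. The log2 fold changes were 0.78 ± 0.11 (adjusted p = 0.000663) and 0.61 ± 0.11 (adjusted p = 0.00253), which the pseudocount shrinks. Summed reads rose 58.8 times in WT (61 against 1 read, 95% counting interval 10.2 to 2360) and 44.9 times in TNFR2-/- (44 against 1 read, 7.65 to 1810), or 25.1 times without both libraries numbered 5 (4.1 to 1030). The genotypes differed by -0.17 ± 0.11 in St (adjusted p = 0.339). The 12 microglia and macrophage markers summed to 1.26 to 2.3 CPM in St and 1.04 to 1.93 in NS libraries, mostly through *P2ry12*. *C1qc* and *Tyrobp* were at 0 in all St libraries. *Itgam* went the other way, at 0.0993 to 0.14 CPM in St and 0 to 0.0665 in NS libraries, on at most 4 reads. The part of these markers was not tested.

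*Cd70*, *Tnfsf10*, *Tnfrsf9*, *Tnfrsf18* and *Tnfrsf14*, also under 1 FPKM, were named after their values were seen, because they passed the adjusted p in at least 1 genotype. *Cd70*, the ligand of CD27, had 0, 2 and 3 reads in WT NS, 38, 26 and 32 in WT St, 2, 2 and 3 in TNFR2-/- NS and 25, 23 and 24 in TNFR2-/- St libraries. It rose in WT (0.48 ± 0.08, adjusted p = 0.00184) and in TNFR2-/- (0.36 ± 0.08, adjusted p = 0.00685), and summed reads rose 18.5 times in WT (7.66 to 58.3) and 10.5 times (4.84 to 27). Its receptor *Cd27* had at most 5 reads in a library.

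*Tnfsf10*, which encodes the death ligand TRAIL, had 1, 1 and 0 reads in WT NS, 20, 15 and 24 in WT St, 1, 1 and 4 in TNFR2-/- NS and 58, 44 and 159 in TNFR2-/- St libraries. Every TNFR2-/- St library was above every WT St library, and the value of 159 was in replicate 5. Summed reads rose 28.4 times in WT (7.53 to 240) and 44.4 times in TNFR2-/- (20.1 to 122), and in St they were 4.49 times higher in TNFR2-/- than in WT (3.37 to 6.06), or 2.59 times higher without both libraries numbered 5 (1.86 to 3.63). On the log2(FPKM + 0.5) scale, the rise was 0.33 ± 0.21 in WT (adjusted p = 0.376) and 1.05 ± 0.21 in TNFR2-/- (adjusted p = 0.00498, and 0.0524 in a fit of those 6 libraries). The WT value passed without TNFR2-/- St replicate 5, whose spread enters the shared error (0.33 ± 0.09, adjusted p = 0.0276), and with voom on the reads (4.21 ± 1.08, adjusted p = 0.0183). The St difference between genotypes was 0.74 ± 0.21 (adjusted p = 0.0676), 0.42 ± 0.10 without both libraries numbered 5 (adjusted p = 0.0666), 0.94 ± 0.21 without TNFR2-/- St replicate 4 (adjusted p = 0.0378) and 1.92 ± 0.51 with voom (adjusted p = 0.0443).

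**Figure D4:**
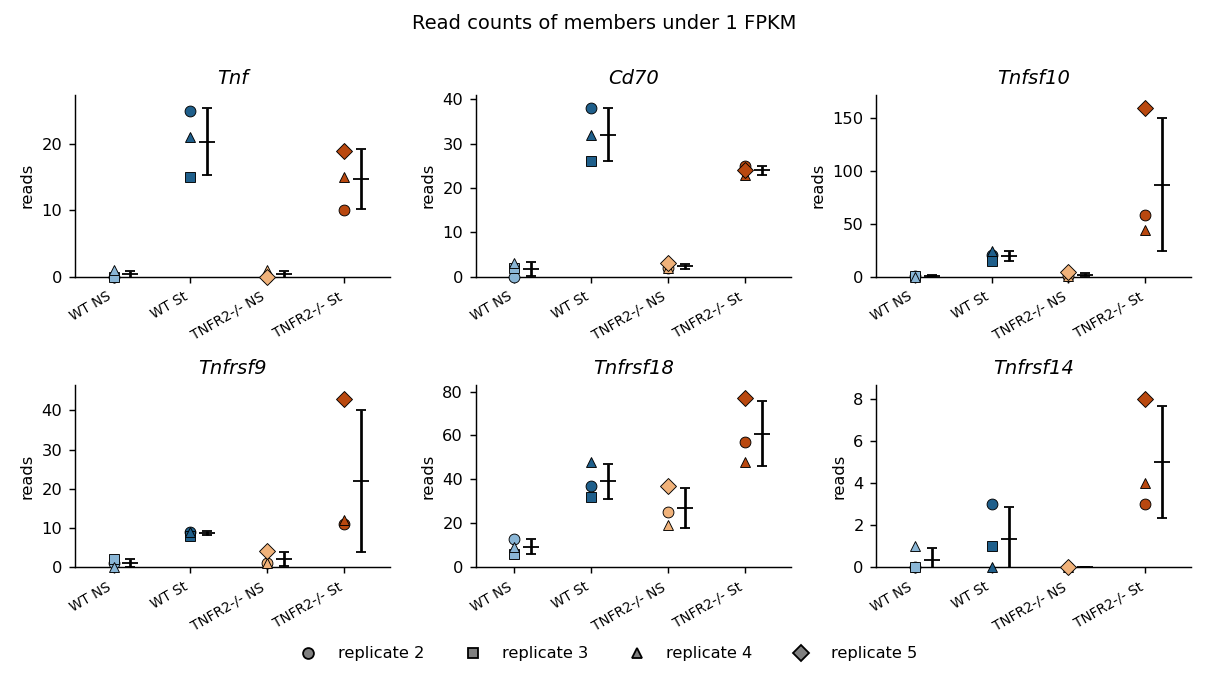
Read counts of 6 members with a mean under 1 FPKM, on linear axes from 0, with 1 symbol per library, its shape giving the replicate number, and bars for the mean ± SD of 3 libraries. *Tnf* and *Cd70* have at most 3 reads in NS and at least 10 in St libraries, and replicate 5 is highest in TNFR2-/- St for *Tnfsf10* (159 reads) and *Tnfrsf9* (43 reads).

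Among the low receptors, *Tnfrsf18* (GITR) had 13, 6 and 9 reads in WT NS, 37, 32 and 48 in WT St, 25, 19 and 37 in TNFR2-/- NS and 57, 48 and 77 in TNFR2-/- St libraries. St did not overlap NS in either genotype, and the rise was 0.84 ± 0.17 in WT (adjusted p = 0.00575) and 0.72 ± 0.17 in TNFR2-/- (adjusted p = 0.00998). An antisense gene covers 27.2% of its exon bases, and without strand their reads cannot be told apart. In TNFR2-/-, *Tnfrsf9* (4-1BB) went from 1, 1 and 4 to 11, 12 and 43 reads (0.53 ± 0.17, adjusted p = 0.0396, up to 0.152 under the alternatives tried). In WT it went from 1, 2 and 0 to 9, 8 and 9 reads (0.24 ± 0.17, adjusted p = 0.414, and 0.0419 with voom). *Tnfrsf14* (HVEM) had 0 reads in all TNFR2-/- NS libraries and 3, 4 and 8 in TNFR2-/- St libraries (adjusted p = 0.00531), and no fold is given for so few reads. *Tnfrsf25* (death receptor 3) went from 14, 13 and 34 to 5, 5 and 4 reads in TNFR2-/- (-0.54 ± 0.15, adjusted p = 0.0255). *Lta*, *Ltb*, *Tnfsf13*, *Tnfsf13b*, *Tnfsf15*, *Tnfsf18*, *Tnfrsf11a* and *Tnfrsf13c* passed the adjusted p in no comparison.

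Between genotypes, 1 member was called higher (*Tnfrsf1b*) and 1 lower (*Eda2r*) in NS, against 1.62% and 1.28% of all genes tested. In St, 1 was called higher (*Tnfrsf1b*) and 0 lower, against 1.18% and 0.614%. The libraries labelled TNFR2-/- also had more astrocyte marker RNA in both conditions. The comparisons share groups with the stimulation comparisons, so they are given side by side and not as independent results. The remaining members above 1 FPKM differed by -0.29 to 0.78 in NS (17 members) and by -0.36 to 1.21 in St (18 members).

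**Figure D5:**
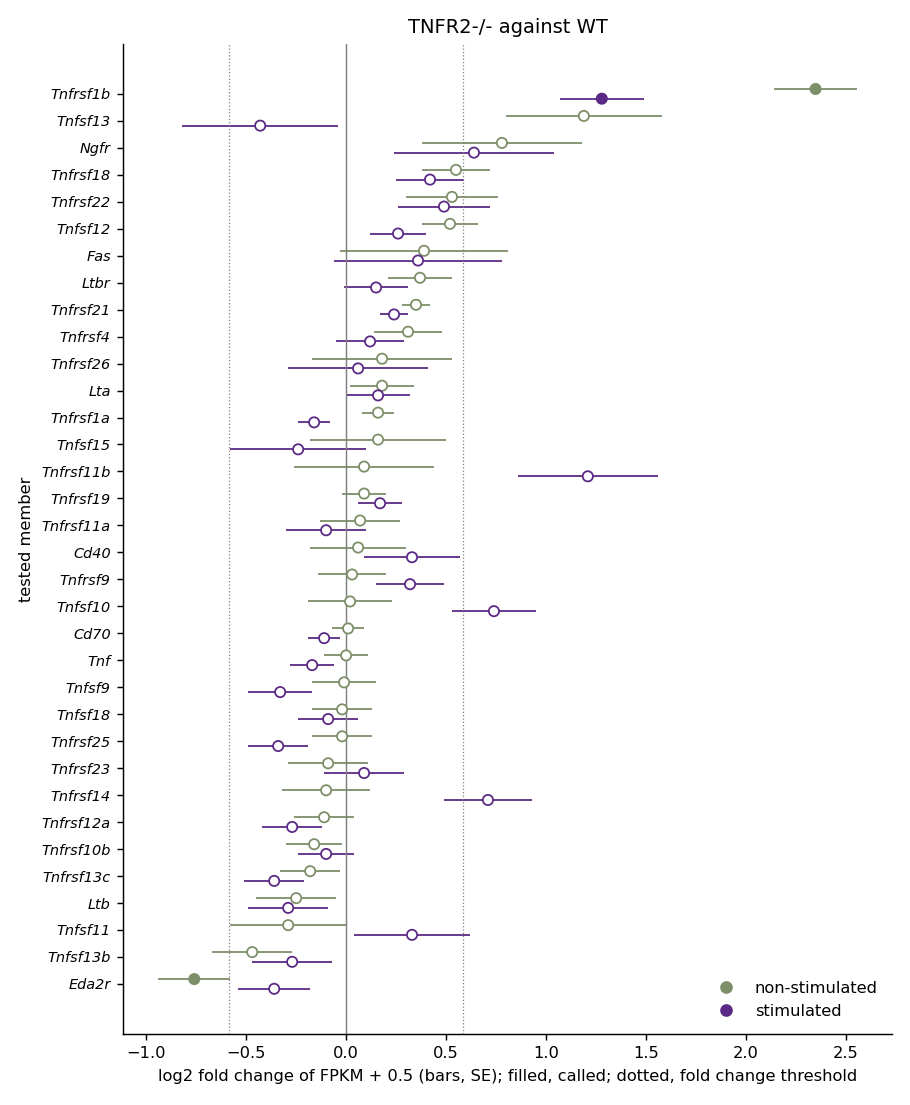
Log2 fold change of FPKM + 0.5 between TNFR2-/- and WT for the 34 tested members, with SE bars, in non-stimulated (green) and stimulated (purple) cells, ordered by the non-stimulated value. Filled points are called, and dotted lines mark the fold change threshold of 1.5-fold. *Tnfrsf1b* is the only member called in both conditions, *Eda2r* is called lower in non-stimulated cells, and *Tnfrsf11b* at 1.21 is open.

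In the interaction of genotype and stimulation, which asks whether the response differed between genotypes, 0 members were called, against 0.00553% of all genes called higher (1 gene) and 0% lower. At an unadjusted p under 0.05 there were 6 members by limma and 5 by voom, which also called 0. The 6 were *Tnfrsf1b*, *Tnfrsf1a* and *Tnfsf13*, with a negative difference (TNFR2-/- response minus WT response), and *Tnfrsf14*, *Tnfsf10* and *Tnfrsf11b*, with a positive one. *Tnfsf13*, whose exons overlap other genes, rests on 0 to 4 reads per library. Their adjusted p ranged from 0.496 to 0.62.

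Signaling by these receptors was described by a list of 41 genes, all of them tested. Most were TRAFs, death-domain adaptors, IAPs, linear ubiquitin ligase subunits, IκB kinases, NF-κB and IκB proteins or ADAM sheddases. The list also held *Edaradd* and, outside the member rule, the ligand *Eda* and the receptor *Relt*. In each genotype 18 genes of the list were called higher and 1 lower with stimulation, against 4.58% higher and 2.95% lower of all genes in WT and 5.41% and 4.68% in TNFR2-/-. The median log2 fold change was 0.25 in WT and 0.22 in TNFR2-/-, and that of all genes tested was -0.05 and -0.11. The largest rises in WT were of *Birc3* (cIAP2), which went from 6.03 ± 2.48 to 170 ± 52.2 FPKM (4.75 ± 0.30, adjusted p = 1.51e-06), *Tnfaip3* (A20, 4.02 ± 0.19, adjusted p = 1.59e-07) and *Nfkbie* (IκBε, 2.79 ± 0.17, adjusted p = 1.15e-06). In TNFR2-/- they were of *Tnfaip3* (4.43 ± 0.19, adjusted p = 7.36e-08), *Birc3* (4.42 ± 0.30, adjusted p = 2.23e-06) and *Nfkbia* (IκBα, 3.27 ± 0.11, adjusted p = 1.59e-08). A20 and the IκB proteins are inhibitors of NF-κB signaling. *Traf4* was the gene called lower, with a fall of 1.22 on the log2 scale in WT and of 1.33 in TNFR2-/-.

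Between genotypes, the list had 2 genes called higher in NS, *Tab1* (0.81 ± 0.14, adjusted p = 0.0143) and *Nfkbie* (0.61 ± 0.17, adjusted p = 0.0473), and 1 called lower, *Rel* (-0.74 ± 0.13, adjusted p = 0.0156). In St 1 was called higher, *Traf2* (0.63 ± 0.13, adjusted p = 0.0304), an adaptor of TNFR2, and in the interaction 0 in either direction by limma. Over all genes, 1.62% were called higher and 1.28% lower in NS, and 1.18% and 0.614% in St. Counts of at most 2 in a list of 41 genes are too few to be set apart from these shares or matched to them.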

How the data were processed

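RNA of 12 OPC libraries was analyzed in 4 groups of 3 (WT and TNFR2-/-, NS and St), assigned by the sample titles. Trimming by the authors was with Trim Galore, alignment and counting per gene with STAR on GRCm38, and their own comparisons used EdgeR. The values deposited by the authors are FPKM per gene symbol, in a table for NS and a table for St. The tables list 45792 entries, and the 229 with a duplicated symbol were dropped. Values of a gene are whole multiples of 1 read, so reads were recovered (26636 of 26636 genes whole within 0.01). The divisor of the FPKM was unrelated to exon length (Spearman's rho 0.01 over 16010 genes), so levels of different genes were set per kb of GENCODE M21 exon.

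log2(FPKM + 0.5) was fitted with limma 3.58.1 (R 4.3.3, empirical Bayes with trend) as 4 group means over 12 libraries, for genes averaging 0.1 FPKM or more. The fit was tested on simulated data. Intervals of read ratios (scipy 1.17.1) cover counting error only. The study describes its results as 3 independent experiments, while the labels do not tie single libraries to cultures, and p-values measure the spread between these libraries. NS and St libraries of a genotype with the same number deviated together (r = 0.34 to 0.65 in 6 pairs, -0.45 to 0.09 in 12 pairs with other numbers) and were taken as 1 culture, whereas numbers did not pair WT with TNFR2-/- (r = -0.06 to 0.20 in 4 pairs).

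The members and lists were chosen with earlier results of these data known. Values per library are given for members called in at least 1 comparison and for *Tnfrsf1a*, *Tnfrsf1b* and *Tnf*. Up to 5 other members with the highest mean FPKM were named, and of the 41 pathway genes up to 3 per direction in each stimulation comparison. Other names were chosen after their values were seen, namely *Ngfr*, *Tnfrsf26*, *Tnfsf11*, *Tnfsf9*, the members under 1 FPKM except *Tnf*, and the pathway genes of the genotype comparisons. Alternatives were other pseudocounts, filters, scaling and thresholds, fits of 6 libraries, no trend, replicate blocks, voom on recovered reads and each library left out. Calls with no floor of 1 FPKM and calls and read ratios without both TNFR2-/- libraries numbered 5 were added after seeing the data. Promoters are from RefSeq (GRCm38.p6), and protein sequences were not used here.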

Additional observations from a re-analysis of the deposited data

How the results depend on the processing

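Of 124 counts of called members over the alternatives, 108 stayed within 1.5 times of the reported count. In TNFR2-/- St vs TNFR2-/- NS, 10 members were called with no floor of 1 FPKM, against 6. In TNFR2-/- NS vs WT NS, 2 members were called, 4 with no fold change threshold, 1 (*Tnfrsf1b*) with no filter on low values, with the 6 libraries compared, with the replicate block by number across genotypes or without both TNFR2-/- libraries numbered 5, and 1 to 3 when each library was left out. In TNFR2-/- St vs WT St, 1 member was called, 0 with the 6 libraries compared, 2 (*Tnfrsf11b* added) with voom on recovered reads or with the replicate block by number, and 0 to 1 when each library was left out. In WT St vs WT NS, 7 to 8 were called when each library was left out, and in TNFR2-/- St vs TNFR2-/- NS 6 to 9. In the interaction, the count was 0 under each alternative. The replicate block within genotype gave 8, 6, 2, 1 and 0 members in the comparisons of WT stimulation, TNFR2-/- stimulation, genotype in NS, genotype in St and interaction, and changed no call. The cause of these changes was not tested.

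Of 936 values of single members, 876 kept their direction and their side of the adjusted p. The 2 values that changed sign were of *Tnfrsf1b* in TNFR2-/- St vs TNFR2-/- NS, which was 0.11, -0.08 to 0.22 when each library was left out (-0.08 without TNFR2-/- NS replicate 5) and -0.06 without both libraries numbered 5. For *Tnf* in WT, the log2 fold change ran from 0.45 to 4.76 over the alternatives, with the adjusted p at 0.0047 or below. Members with a few reads are limited by counting, and 3 libraries per group limit the rest.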
